A study of Arabidopsis thaliana with 12 samples.

Results

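The response of *agb1* roots to salt was followed on the 6 arrays of the series that carried RNA of *agb1-3*, out of 12 arrays in all. Members were chosen by their labels alone, 3 arrays at 4 h of NaCl and 3 arrays at 0 h. *agb1-3* is a T-DNA insertion line of the gene for the Gβ subunit in the Col-0 background, and it is a single allele. All seedlings were 7 d old and had grown on MS agar, whole seedlings were placed in liquid medium, and roots were cut off afterwards for RNA. The labels give 150 mM NaCl for 4 h or 0 h, whereas the study's methods describe control seedlings kept for the same time in medium without NaCl. Under the labels' wording, the effects of salt, of immersion and of time of day cannot be told apart. The other 6 arrays were WT (Col-0) at 4 h and 0 h, treated alike, and show where *agb1* differed. They also entered the spread shared in the model, the filter on dim probes and the choice of the brightest probe. The calls in *agb1* therefore rest on the WT arrays too, and from the *agb1* arrays alone 44 genes rose and 9 fell. The study asked how AGB1 takes part in the transcriptional response to salt stress, and the question here is which functions still responded without it.

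Heterotrimeric G proteins relay signals from the plasma membrane, and AGB1 is the Gβ subunit of Arabidopsis, known from mutants to affect responses to abscisic acid (ABA), salt and pathogens. Salt withdraws water from root cells and loads them with sodium. ABA then binds PYR/PYL/RCAR receptors, which hold back clade A protein phosphatases 2C, so that SnRK2 kinases can activate ABF transcription factors and their targets, among them genes of protective proteins and of the phosphatases themselves. Growth of the root slows at the same time, and growth rests on loosening of the cell wall by expansins and by xyloglucan endotransglucosylase/hydrolases (XTH).

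Levels are given as log2 of the processed array signal relative to the 75th percentile of that array, so that a level of 0 equals that percentile, and changes are the level at 4 h minus the level at 0 h. The 2 arrays *agb1* 0 h replicates 1 and 2 were nearly identical. Over 17793 bright probes their differences had a scaled median absolute deviation of 0.0851 log2 units, below the 0.149 that repeated spots within arrays would give, and only 80 probes differed more than 1.5-fold, against 833 to 4072 probes in the other *agb1* pairs. They differed by less than the measurement noise, so they were averaged and counted as 1 sample, which left n = 3 at 4 h and n = 2 at 0 h. The remaining 0 h array, replicate 3, therefore carries as much weight as replicates 1 and 2 together. The 75th percentile of the signal lay between 1772 and 3305 intensity units on the *agb1* arrays, and 74.1 to 76.1% of spots were well above background over all 12 arrays.

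*AGB1* itself was read by 2 probes. On the brighter probe the levels were 0.88, 0.39 and 0.67 in *agb1* at 4 h, against 0.07, −0.10 and 0.63 in *agb1* at 0 h, and the change of 0.34 (SE 0.22) did not pass the test (limma, adjusted p = 0.384). The WT levels on this probe were higher than every *agb1* level, at 1.58, 1.32 and 1.26 at 4 h and 1.42, 1.64 and 1.46 at 0 h. The dimmer probe read −0.94, −1.28 and −1.32 in *agb1* at 4 h, against −1.25, −1.3 and −0.78 in *agb1* at 0 h, which overlapped the WT levels. Where either probe lies relative to the insertion was not examined, so these values do not check the loss of the transcript. The 9 measured genes of G protein subunits and their regulator had a median change of −0.02 in *agb1*, and in the limma model 0 were called and 0 had an unadjusted p below 0.05.

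In *agb1* roots 418 of 25207 genes (1.66%) differed at least 2-fold between 4 h and 0 h with an adjusted p below 0.05 in the limma model. Of these, 288 rose (1.14% of the genes tested) and 130 fell (0.516%), and 5570 genes (22.1%) had an unadjusted p below 0.05. The 1.14% and 0.516% are the shares beside which counts of called list and family members in *agb1* are to be read. For counts in WT the shares were 5.81% that rose and 3.99% that fell. The WT contrast had more samples, so counts of calls do not compare the strength of the 2 responses. The median change over all genes was −0.04. Among the rises, 111 genes were at least 4-fold and 46 at least 8-fold higher, and among the falls 44 were at least 4-fold and 19 at least 8-fold lower. The call left out many large changes, since a further 1103 genes were at least 2-fold higher and 801 at least 2-fold lower without passing the test. With the slide as a fixed block 79 genes rose and 18 fell, with normexp background correction 12 rose and 6 fell, and without *agb1* 4 h replicate 2 85 rose and 42 fell, so the lists of called genes rest on the settings and arrays used. *PAP3* lay just inside the threshold with a change of 1.46 (adjusted p = 0.0492), and *CLE40* just outside with 2.16 (adjusted p = 0.0501). In bulk roots, fewer cells of a type and less RNA per cell cannot be told apart.

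Among genes with a locus that were read well above background on all 6 arrays, the largest rise was that of *LEA7*. This gene encodes a late embryogenesis abundant (LEA) protein of the kind that protects drying cells, and it read 2.09, 2.65 and 2.58 at 4 h, against −2.76, −3.07 and −3.64 at 0 h. The arrays were far apart, with a change of 5.72 (SE 0.42, adjusted p = 0.000834), or 52.7-fold. *MYB121*, a gene of an R2R3 MYB factor, read −0.83, −1.66 and −0.63 at 4 h, against −6.42, −6.18 and −6.30 at 0 h, a change of 5.26 (SE 0.41, adjusted p = 0.00108). *TSPO*, for a membrane protein induced by ABA, read 0.88, 0.80 and 1.03 at 4 h, against −4.59, −5.54 and −3.25 at 0 h, and rose by 5.06 (SE 0.52, adjusted p = 0.00356). Its 4 h arrays lay close together and its 0 h arrays were spread. The other 9 of the 12 largest rises were *AT3G15670* (5.31), *AT4G33467* (4.6), *HAI3* (4.53), *LEA4-5* (4.06), *HSFA6B* (4.06), *AT1G49450* (3.82), *HAI1* (3.78), *AT5G66780* (3.65) and *AT3G02480* (3.48), all changes on the log2 scale. A probe without a locus, A_84_P768692, had a change of 5.34 and would rank among them. At the other end stood *XTH26* with −5.03, *EXPA12* with −4.19 and *UCC3* with −3.91.

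**Figure D1:**
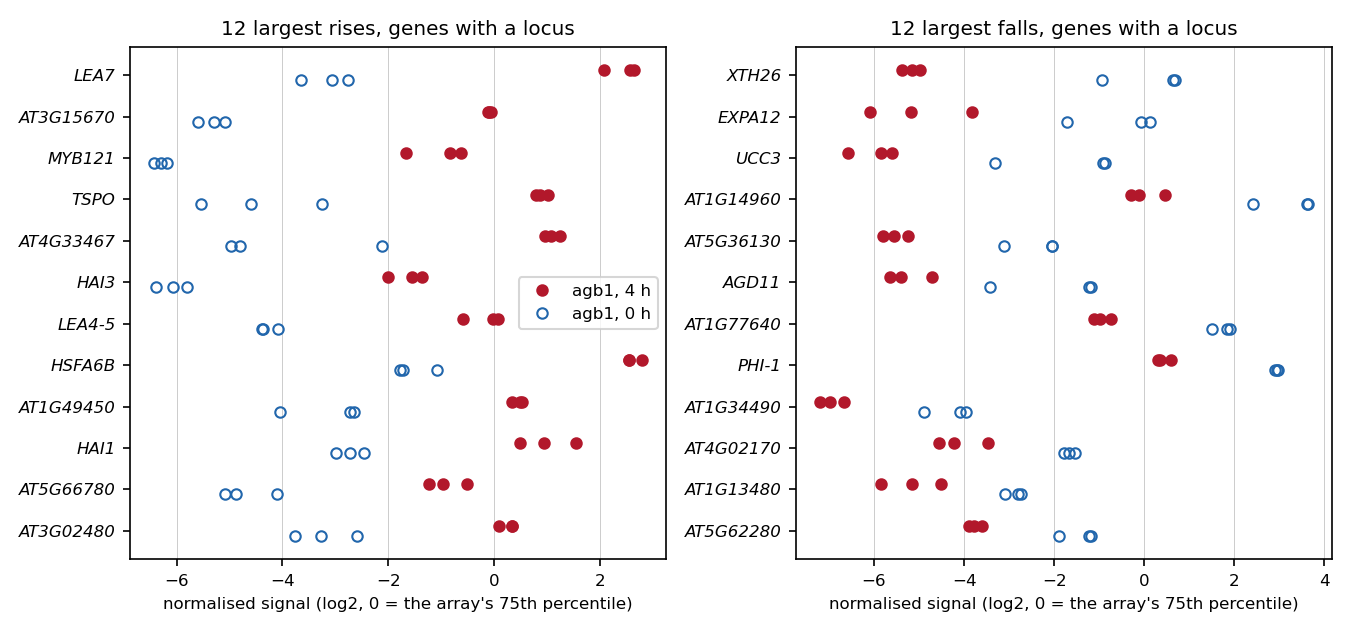
Level (log2 signal, 0 at the 75th percentile of the array) on each *agb1* array of the 12 largest rises (left) and the 12 largest falls (right) among genes with a locus above background on all 6 *agb1* arrays, with filled points at 4 h and open points at 0 h. Genes were chosen among those whose points of the 2 times do not overlap, and run from *LEA7* with a change of 5.72 to *XTH26* with −5.03.

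A further 38 rises were not well above background on any 0 h array, and for these only a lower bound of the fold holds. The bound divides the mean at 4 h by a floor at 0 h, for which each array gave either its dimmest signal still called well above background or the signal of the probe, whichever was brighter. *RD20*, a caleosin of lipid droplets known from drought, read −3.81, −3.84 and −2.43 at 4 h and was at least 20.1-fold higher (adjusted p = 0.00111). *AT1G04560* was at least 21.6-fold higher. *WRKY71*, a WRKY transcription factor gene, was at least 14.0-fold higher, with −4.23, −3.66 and −3.76 at 4 h. *SWEET4*, for a sugar transporter, was at least 12.5-fold higher and *GASA3*, for a gibberellin-regulated peptide, at least 8.99-fold, next to a probe without a locus, A_84_P835897, at least 9.04-fold. At 0 h, none of these 5 genes was above background on any of the 3 *agb1* arrays. *RD20*, *AT1G04560*, *SWEET4* and *GASA3* were above background on only 6 of the 12 arrays, the 3 of *agb1* at 4 h among them. They thus entered the test only through 4 h arrays, where they were high, and their adjusted p is no separate evidence of a rise. The bounds hold for the deposited background correction. With normexp correction the changes were 2.55 for *RD20*, 2.67 for *AT1G04560*, 2.36 for *WRKY71*, 2.25 for *SWEET4* and 2.16 for *GASA3*, none past the test. With all such genes set to their bounds, the median change of the called rises was 1.57, against 1.70 with the fitted values.

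In ABA signalling the genes called were those of phosphatases. Of 23 measured genes of ABA perception and signalling, 4 rose and 0 fell, and the median change was 0.61, beside −0.04 over all genes. All 4 were clade A phosphatase 2C genes, which act as negative regulators of ABA signalling. *HAI1* read 0.49, 0.96 and 1.56 at 4 h, against −2.72, −2.45 and −2.98 at 0 h, a change of 3.78 (SE 0.44, adjusted p = 0.00658). *HAI3* read −1.36, −2.0 and −1.54 at 4 h, against −6.06, −5.80 and −6.40 at 0 h, a change of 4.53 (SE 0.57, adjusted p = 0.00906). *HAI2* rose by 4.76 (SE 0.46, adjusted p = 0.00303), and at 0 h it was above background on only 1 of the 3 arrays. It entered the test only through 4 h arrays, where it was high, so its adjusted p is no separate evidence of a rise. *ABI1* rose by less, with 3.20, 3.11 and 3.37 at 4 h, against 1.99, 1.92 and 1.69 at 0 h (change 1.4, SE 0.19, adjusted p = 0.0118). None of the 4 genes overlapped between 4 h and 0 h, which also held for 287 of the 288 called rises. Of all genes, 16.3% lay higher at 4 h without overlap. The 5 other clade A genes had changes of 1.03 (*AHG1*), 1.02 (*ABI2*), 0.98 (*HAB1*), 0.44 (*PP2CA*) and 0.38 (*HAB2*), and none passed the test.

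The receptors and kinases gave no call in *agb1*. The 11 measured PYR/PYL receptor genes had a median change of −0.01 with 0 called and 3 higher at an unadjusted p below 0.05, and *PYL7* had the highest change, 2.46 (adjusted p = 0.061). The kinase genes *SNRK2.2*, *SNRK2.3* and *OST1* changed by 0.14, 0.61 and −0.13. In WT, 5 of the 11 receptor genes fell and 1 rose, beside 3.99% and 5.81% of all genes, with a median of −0.98. For *PYL6* the genotypes differed, with a change of −0.58 in *agb1* and −3.32 in WT (difference 2.74, limma interaction, adjusted p = 0.0469).

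Among 12 genes of ABA synthesis and breakdown, 1 rose and the median change was 0.43. This was *NCED3*, for the dioxygenase that makes the rate-limiting cleavage in ABA synthesis, with −0.13, −0.05 and −0.30 at 4 h, against −2.74, −2.82 and −3.14 at 0 h. The change was 2.8 (SE 0.36, adjusted p = 0.00931), and the 3 arrays at each time lay within a narrow range. *ABA1*, which acts earlier in the pathway, changed by 1.1 (adjusted p = 0.0736). Of the genes of ABA 8′-hydroxylases, which break ABA down, *CYP707A1* changed by 0.86 and *CYP707A3* by −0.95, neither past the test. Outside the list, *BETA-OHASE 1*, for a carotene hydroxylase that acts upstream of the ABA precursors, rose by 1.70, and *XERICO*, for a RING protein that raises ABA content when overexpressed, rose by 1.22. These 2 genes were picked after their values were seen.

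**Figure D2:**
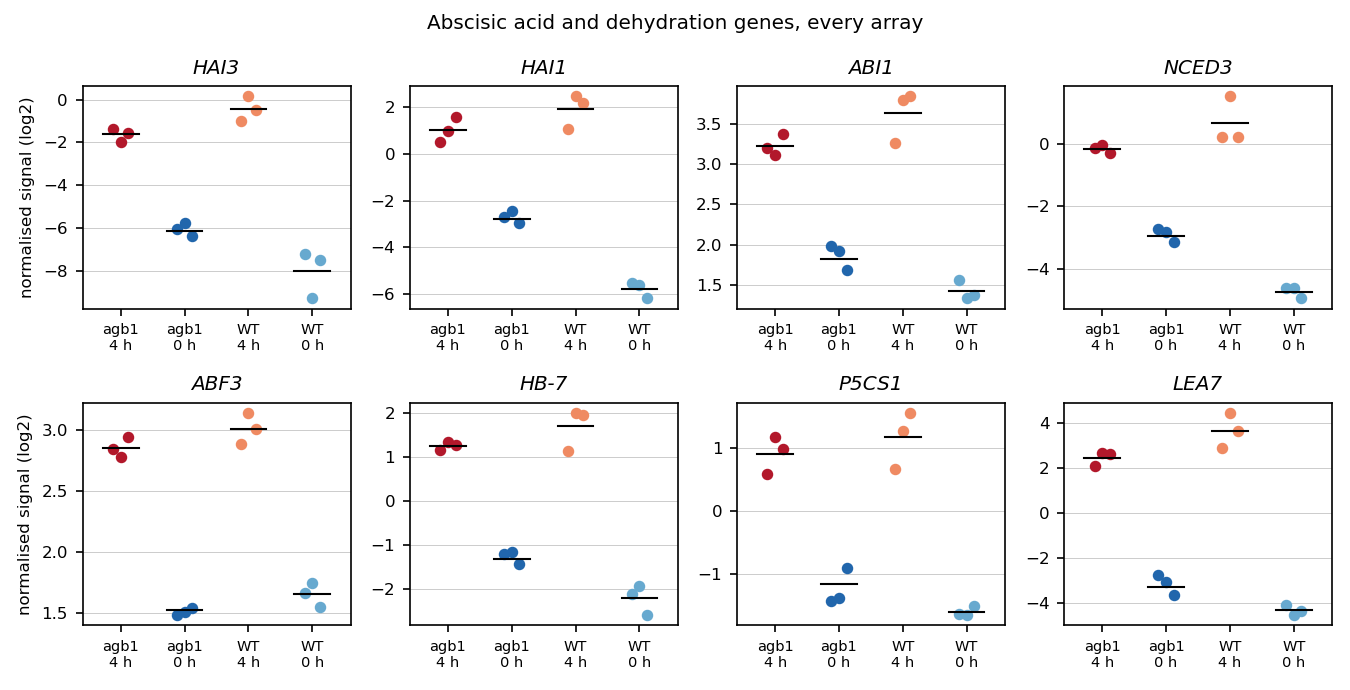
Levels (log2 signal relative to the 75th percentile) of 8 ABA and dehydration genes on each array, in the order *agb1* 4 h, *agb1* 0 h, WT 4 h and WT 0 h. Points are arrays and lines are means, with *agb1* 0 h replicates 1 and 2 averaged first. In every panel the 4 h points of *agb1* lay above its 0 h points, as in 287 of the 288 called rises.

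Of 30 measured transcription factor genes of the ABA and dehydration response, 6 rose (20%, beside 1.14% of all genes) and 0 fell. In 26 the change was above 0, and the median change was 1.32, the highest of the 28 lists. *ABF3*, for a bZIP factor that binds ABA-responsive elements, read 2.85, 2.78 and 2.94 at 4 h, against 1.49, 1.51 and 1.55 at 0 h. Its change of 1.33 (SE 0.13, adjusted p = 0.00284) was close to that in WT, 1.36, and the difference between genotypes was −0.03 with a 95% interval of −0.41 to 0.36. *HB-7*, for a homeodomain-leucine zipper factor induced by drought, read 1.16, 1.35 and 1.28 at 4 h, against −1.21, −1.17 and −1.44 at 0 h, and rose by 2.58 (SE 0.28, adjusted p = 0.00423). *AFP1* and *AFP3*, whose products bind the ABA factor ABI5, rose by 2.24 and 1.3. The NAC genes *NAC047* and *NAC102* rose by 1.25 and 1.34, *NAC102* with no value on *agb1* 4 h replicate 3, which the fit dropped.

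Several well-known members missed the call while their changes were large. *MYB102* (2.33), *HB-12* (2.25), *RD26* (2.05) and *MYB41* (1.96) had adjusted p of 0.0992, 0.059, 0.059 and 0.0536. *MYB2* changed by −0.51 in *agb1* and by 1.69 in WT, and there the genotypes differed (difference −2.20, adjusted p = 0.0235). Over whole families, picked after values were seen, 6 of 90 R2R3 MYB genes rose and 1 fell, 5 of 80 NAC genes rose, and 2 of 62 WRKY genes rose, beside 1.14% of all genes that rose and 0.516% that fell. Both WRKY genes, *WRKY71* and *WRKY49*, were above background on no *agb1* array at 0 h, and *WRKY49* was so on only 5 of the 12 arrays, the 3 of *agb1* at 4 h among them, so it had to differ to be tested. The MYB rises were *MYB121*, *MYB79* (2.92), *MYB305* (2.48), *MYB45* (1.78), *MYB20* (1.63) and *MYB3* (1.18), and the fall was *MYB51*. Factors outside these families that rose were *HSFA6B*, *NF-YA5* (3.20) and *SOM* (3.80), the last for a zinc finger protein that represses seed germination and above background on only 1 of the 3 arrays at 0 h. *HSFA6B*, for a heat shock factor that responds to ABA, read 2.8, 2.57 and 2.56 at 4 h, against −1.78, −1.72 and −1.08 at 0 h, and it was the only call among 16 heat shock genes (change 4.06, SE 0.52, adjusted p = 0.00947). The chaperone genes *HSP101*, *HSP90.1* and *HSP18.2* changed by 1.00, 0.27 and −0.29, none past the test.

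Of 18 measured DREB and C2H2 zinc finger genes, many of them linked to cold and drought, 0 rose and 1 fell, and the median change was 0.09 in *agb1*. In WT the median was 1.05, and 8 rose and 1 fell, beside 5.81% and 3.99% of all genes. *ZF3*, for a C2H2 zinc finger protein, read −0.42, −0.52 and −0.33 at 4 h, against 0.60, 0.53 and 1.11 at 0 h, and fell by 1.26 (SE 0.23, adjusted p = 0.029). *DREB1A* changed by 0.49 in *agb1* and 4.25 in WT, and *CBF1* by 0.09 and 2.34. No member of this list passed the test of the difference between genotypes.

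Protective proteins of dehydrating cells were the list with the most rises. Of 32 measured genes, 7 rose (21.9%, beside 1.14% of all genes), 0 fell and 31 had a change above 0, with a median of 0.90. They were the caleosin gene *RD20*, the LEA genes *LEA7*, *LEA4-5*, *EM1* and *AtLEA4-1*, the membrane protein gene *TSPO* and the dehydrin gene *LTI30*. Among these, *RD20* entered the test only through 4 h arrays, where it was high, so its place in the count is no separate evidence. *LEA4-5* read −0.01, −0.58 and 0.08 at 4 h, against −4.39, −4.37 and −4.08 at 0 h (change 4.06, SE 0.42, adjusted p = 0.00356). *EM1*, a LEA gene best known from seeds, read −3.41, −3.24 and −3.69 at 4 h, against −6.01, −6.63 and −6.12 at 0 h (change 2.77, SE 0.38, adjusted p = 0.0114). *LTI30* read 4.37, 4.74 and 4.59 at 4 h, against 3.31, 3.26 and 3.49 at 0 h, and it rose by 1.18 (SE 0.21, adjusted p = 0.0298). In none of these 3 genes did the times overlap, as in 287 of the 288 called rises.

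Other commonly used stress markers of this list did not pass. *COR15A* changed by 4.29 (adjusted p = 0.0581), *LTI78*, also known as *RD29A*, by 2.12 (adjusted p = 0.0599) and *LTI65*, also known as *RD29B*, by 1.86 (adjusted p = 0.0527). *RAB18* changed by 0.03 and *RD22* by −0.10. In WT, 19 of the 32 genes rose, beside 5.81% of all genes, the median change was 2.28 and *LTI78* changed by 4.58. The test of the difference called 1 member, *ECP63*, a LEA gene with a change of 2.43 in *agb1* and 7.88 in WT (difference −5.45, adjusted p = 0.0279). Related rises outside the list, picked after values were seen, were *HVA22B* (2.99), *LEA18* (2.84) and *COR413-PM1* (1.46).

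Of 25 genes of compatible solutes and sugar metabolism, 2 rose and the median change was 0.49. *P5CS1*, for the enzyme that commits glutamate to proline, read 0.58, 1.18 and 0.98 at 4 h, against −1.43, −1.39 and −0.92 at 0 h, and rose by 2.08 (SE 0.28, adjusted p = 0.0109). *BAM1*, for a β-amylase of starch breakdown, read 4.13, 3.64 and 3.71 at 4 h, against 2.42, 2.51 and 2.63 at 0 h (change 1.27, SE 0.25, adjusted p = 0.0398). Neither gene overlapped between times, as in 287 of the 288 called rises. The galactinol synthase genes of raffinose synthesis gave wide errors, with changes of 2.4 for *GolS4* (adjusted p = 0.237) and 1.09 for *GolS2* (adjusted p = 0.181), beside 6.68 and 4.49 in WT. Sugar and solute transport appeared again among the called genes with a symbol, which were read through after their values were seen. Beside *SWEET4*, these were *cwINV4*, for a cell wall invertase (at least 5.45-fold higher), *INT2*, for an inositol transporter (at least 3.66-fold higher), *INT1*, for an inositol transporter of the vacuole (1.08), *SUC2*, for the sucrose loader of phloem companion cells (1.2), and *AAT1*, for an amino acid transporter (1.61).

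Ion transporters in the narrow sense did not stand out. Of 21 genes of sodium and potassium transport, 0 were called, the median change was 0.20, and at an unadjusted p below 0.05 1 was higher and 1 lower. *SOS1*, *SOS2* and *SOS3*, which act together in sodium export, changed by 0.15, 0.47 and 0.77. *HKT1*, which withdraws sodium from the xylem sap, changed by 0.47 in *agb1* and 1.95 in WT, where it was called. *CHX20*, for a cation/proton exchanger that was not on the list, rose by 2.23. The 21 aquaporin genes also gave 0 calls, with 2 higher and 1 lower at an unadjusted p below 0.05, a median of 0.28 and changes between −1.05 and 1.63.

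The endodermis, whose Casparian strip and suberin coat limit the entry of ions, was represented by 21 measured genes. Of these 2 rose in *agb1*, both of the CASP family whose proteins build the Casparian strip. *CASP4* read −0.02, 0.41 and 0.24 at 4 h, against −1.42, −1.37 and −2.57 at 0 h (change 2.19, SE 0.33, adjusted p = 0.0153). *CASP5* read 1.61, 0.78 and 0.51 at 4 h, against −1.3, −1.42 and −0.57 at 0 h (change 1.93, SE 0.34, adjusted p = 0.0283). All 5 CASP genes had changes above 0, between 0.64 and 2.19. Among suberin genes, *GPAT5*, *CYP86A1*, *FAR5* and *ABCG2*, which make or export suberin monomers, changed by 0.05, −0.48, −0.47 and −0.18. Over the 21 genes, 8 were higher and 0 lower in *agb1* at an unadjusted p below 0.05. In WT, 12 of the 21 genes rose, beside 5.81% of all genes, and the median was 1.76, against 0.36 in *agb1*. For *GPAT5* the difference between genotypes was −3.28 with a 95% interval of −4.71 to −1.84, and it missed the threshold (adjusted p = 0.0972). At an unadjusted p below 0.05, 10 of the 21 genes (47.6%) had a smaller change in *agb1*, beside 5.21% of all genes, and 0 passed after adjustment.

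Several of the named falls were genes of the cell wall. *XTH26*, for an XTH of root hairs, read −5.38, −4.98 and −5.16 at 4 h, against 0.67, 0.64 and −0.94 at 0 h (change −5.03, SE 0.64, adjusted p = 0.00906). *EXPA12*, an expansin gene, read −3.84, −6.09 and −5.18 at 4 h, against 0.13, −0.07 and −1.71 at 0 h (change −4.19, SE 0.65, adjusted p = 0.0168). *UCC3*, for a copper protein of the uclacyanin kind, read −5.60, −6.57 and −5.84 at 4 h, against −0.91, −0.87 and −3.30 at 0 h (change −3.91, SE 0.68, adjusted p = 0.0269). In all 3 genes replicate 3 was the lowest of the 0 h arrays. It still lay above every 4 h array, which was a condition for choosing the largest falls.

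Of the 23 measured expansin and XTH genes listed for growing roots, 3 fell and 1 rose, with a median of −0.41. The falls were *XTH18* (−1.79), *TCH4* (−1.64), a touch-induced XTH gene, and *XTR6* (−1.4). *TCH4* read 0.81, 0.84 and 0.89 at 4 h, against 2.75, 2.7 and 2.25 at 0 h. *EXPA8* went the other way, with −2.31, −0.59 and −1.38 at 4 h, against −4.14, −4.11 and −3.80 at 0 h, and rose by 2.53 (SE 0.42, adjusted p = 0.0208). Over whole families, picked after values were seen, 5 of 29 XTH genes fell and 0 rose, with a median change of −0.68. Of 22 expansin genes 2 fell and 1 rose, with a median of −0.11. Of all genes, 0.516% fell and 1.14% rose. The EXORDIUM family, whose members promote growth in response to brassinosteroids, had 3 falls among 7 measured genes. *PHI-1* read 0.35, 0.30 and 0.59 at 4 h, against 2.96, 2.96 and 2.91 at 0 h (change −2.52, SE 0.35, adjusted p = 0.0118). *EXO* read 1.28, 1.08 and 1.37 at 4 h, against 3.58, 3.47 and 3.05 at 0 h (change −2.04, adjusted p = 0.0109), and *EXL5* fell by 2.11. Single falls of wall genes, seen in the same reading of the called genes, were *GAE1* (−1.45) and *GATL10* (−1.27), which act in pectin synthesis, *AGP26* (−1.02), an arabinogalactan protein gene, and *THE1* (−1.26), for a receptor kinase that senses wall integrity.

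**Figure D3:**
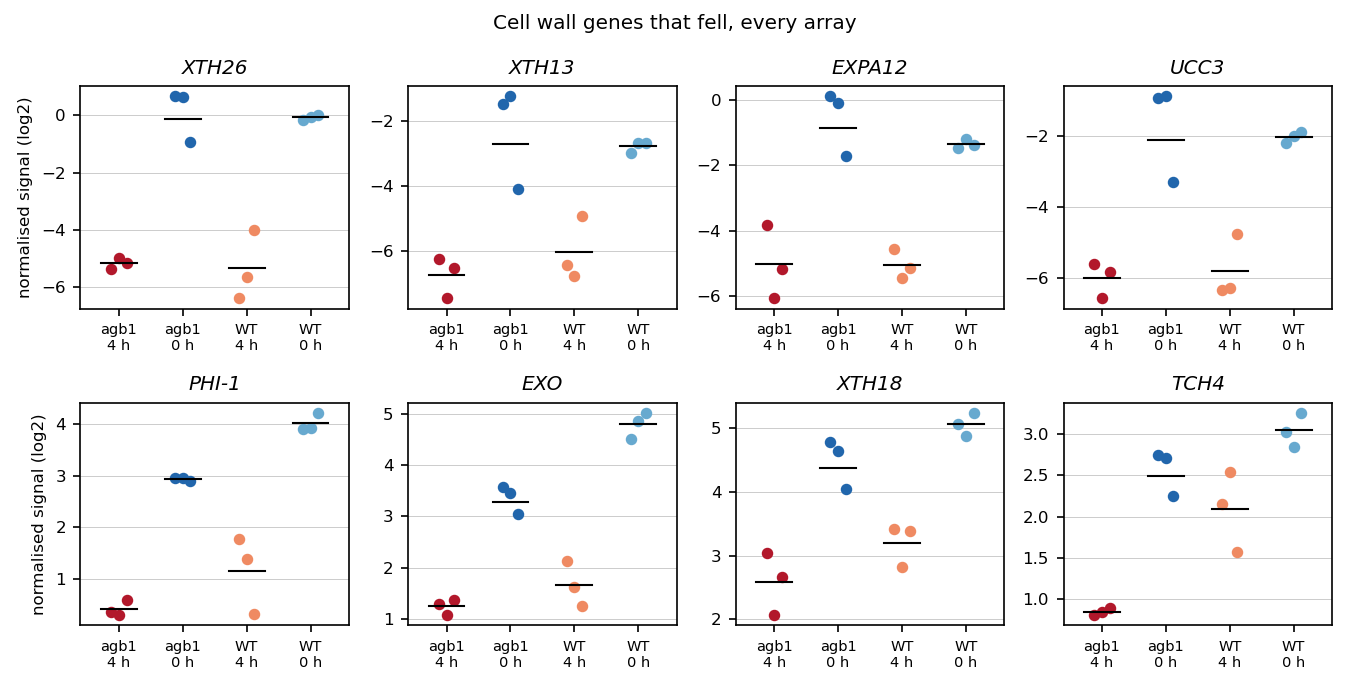
Levels (log2 signal relative to the 75th percentile) of 8 wall-related genes that fell in *agb1*, on each array, in the order *agb1* 4 h, *agb1* 0 h, WT 4 h and WT 0 h. Points are arrays and lines are means, with *agb1* 0 h replicates 1 and 2 averaged first. No *agb1* 4 h point reached an *agb1* 0 h point, as in all 130 called falls.

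Root hair genes showed the lowest median of the 28 lists, −1.72 over 28 measured genes, of which 25 had a change below 0. Only 2 passed the test, *XTH26* and *XTH13*. *XTH13* read −6.24, −7.45 and −6.51 at 4 h, against −1.48, −1.24 and −4.09 at 0 h (change −4.01, SE 0.77, adjusted p = 0.037). For 17 of the 28 genes every 4 h array lay below every 0 h array, beside 18.4% of all genes (34.6% of all genes did not overlap in either direction). Large changes that missed the threshold were those of *XTH12* (−4.49, adjusted p = 0.0657), *PRP1* (−3.95, adjusted p = 0.0834), *PRP3* (−2.98, adjusted p = 0.0633) and *RHS18* (−3.01, adjusted p = 0.0731). *RSL4*, for the factor that sets hair length, changed by −1.18, and *RHD6*, for the factor that starts hair formation, by 0.32. In WT the median of the list was −1.27, with 7 falls and 1 rise, and no difference between genotypes was called, the members' differences lying between −1.12 and 0.90.

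Falls were also seen among calcium, RNA-decay and defence genes, which apart from the listed WRKY and indolic genes were picked after values were seen. Of 13 calmodulin-like genes 3 fell, *AGD11*, also listed as *CML3* (−2.94), *CML37* (−1.53) and *CML42* (−1.32). The deadenylase genes *CAF1b* (−1.82) and *CAF1a* (−1.04) fell too. Of 26 WRKY and indolic defence genes 2 fell and 0 rose. *CYP81F2*, for a P450 of indole glucosinolate synthesis, read −3.96, −4.52 and −4.24 at 4 h, against −2.59, −2.56 and −2.22 at 0 h (change −1.84, SE 0.33, adjusted p = 0.0298). *MYB51*, for a regulator of the same pathway, read −1.24, −1.13 and −0.61 at 4 h, against 0.27, 0.32 and −0.07 at 0 h (change −1.1, SE 0.22, adjusted p = 0.0444). *FLS2*, for the receptor of bacterial flagellin, fell by 2.63 and was above background on 1 of 3 arrays at 4 h. *MKK7*, for a MAP kinase kinase, was above background on no 4 h array and was at least 4.29-fold lower (adjusted p = 0.00378), and *ERF11*, an ethylene response factor gene, fell by 1.97. With normexp background correction the change of *MKK7* was 0.20. *MKK7* entered the test only through 0 h arrays, where it was high, so its adjusted p is no separate evidence of a fall.

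For 21 falls the 4 h arrays were all at background. Beside *MKK7*, the largest bounds were those of *AT4G00130* (at least 18.7-fold lower), *OFP11*, for an OVATE family protein (at least 18-fold), *AT1G57630* (at least 9.72-fold) and *AT2G29000* (at least 4.14-fold), whose change was 0.34 with normexp background correction. With that correction the changes of *AT4G00130*, *OFP11* and *AT1G57630* were −0.78, −0.89 and −0.40, far below these bounds in size and not past the test. *OFP11* read −2.74, −2.57 and −4.06 at 0 h. *AT4G00130* and *AT2G29000* were above background on only 6 of the 12 arrays, the 3 of *agb1* at 0 h among them. *OFP11* was so on 7 arrays and *MKK7* on 8, neither on all arrays of a 4 h group. All these genes thus entered the test only through 0 h arrays, where they were high. Their adjusted p is no separate evidence of a fall. The others of the 12 largest falls were *AT1G14960* (−3.0), *AT5G36130* (−2.95), *AT1G77640* (−2.63), *AT1G34490* (−2.48), *AT4G02170* (−2.39), *AT1G13480* (−2.24) and *AT5G62280* (−2.21), for which the annotation used here gives no name. With such genes at their bounds the median change of the called falls was −1.53, against −1.67 with the fitted values.

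Some functions gave 0 calls in *agb1*. Among 17 genes of the unfolded protein response the median was −0.14, and 1 was higher at an unadjusted p below 0.05. *BIP3*, an endoplasmic reticulum chaperone gene that is a common marker of this response, changed by 2.34 (adjusted p = 0.15), while *BIP1*, *BIP2* and *BZIP60* changed by −0.60, −0.57 and 0.33. *BZIP17*, for the membrane-tethered factor released under salt stress, changed by −0.29. The 21 genes of jasmonate synthesis and JAZ repressors had a median of −0.08, with 2 higher and 2 lower at an unadjusted p below 0.05. In WT the median was 1.03 and 7 rose, beside 5.81% of all genes. All 21 had a lower change in *agb1* than in WT, as did 44.5% of all genes, and 1 difference was called, that of *LOX3*, for a lipoxygenase of jasmonate synthesis, with −0.61 in *agb1* and 3.41 in WT (difference −4.02, adjusted p = 0.0296). Genes of type-A cytokinin response regulators had a median of 0.78 over 10 genes, 5 of them higher at an unadjusted p below 0.05, with *RR16* at 2.29 (adjusted p = 0.111) and *ARR7* at 2.03 (adjusted p = 0.081). Ethylene, auxin, reactive oxygen and flavonoid genes had medians of −0.18, −0.13, 0.13 and 0.61, and at an unadjusted p below 0.05 1, 4, 3 and 1 were higher and 4, 1, 0 and 0 lower. Cell cycle genes had a median of −0.40, 1 was higher and 12 were lower at an unadjusted p below 0.05, and in 14 of 20 every 4 h array lay below every 0 h array, beside 18.4% of all genes.

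Low-oxygen, nutrient and triterpene genes gave 0 calls in *agb1*. The 12 low-oxygen genes had a median of −0.07, with *ADH1* at −0.14, beside −1.21 in WT, where 6 fell. Their log2 summed level at 0 h was 6.75, 6.78 and 7.81 in *agb1*, below 8.94, 8.62 and 8.81 in WT. At 4 h it was 6.87, 7.64 and 6.75 in *agb1* and 7.78, 7.58 and 7.38 in WT. The 21 genes of nitrate and iron acquisition had a median of −0.32, beside −1.24 in WT, where 4 fell. Their log2 summed level at 0 h was 6.40, 6.35 and 6.72 in *agb1*, below 7.48, 7.27 and 7.54 in WT. At 4 h it was 6.75, 6.32 and 6.44 in *agb1* and 6.58, 6.06 and 6.41 in WT. The 6 genes of the root triterpene clusters had a median of −0.70, beside 1.84 in WT, and none was called in either genotype. Their summed level was 2.89, 4.21 and 4.25 in *agb1* at 4 h, against 5.14, 5.16 and 3.84 in *agb1* at 0 h. In WT it was 2.08, 3.86 and 5.34 at 4 h, against 1.95, 2.08 and 2.06 at 0 h, so only replicates 2 and 3 stood clearly higher. At an unadjusted p below 0.05, 1 nitrate and iron gene was higher in *agb1* at 4 h and no other member of these 3 lists differed between the times. No difference between genotypes was called in these lists.

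Shoot photosynthesis and clock genes read higher at 4 h in *agb1*, with 1 call among them. All 24 shoot photosynthesis genes were above background on all 6 arrays and had changes above 0, with a median of 0.92, and in 17 of them every 4 h array lay above every 0 h array, beside 16.3% of all genes. Their summed level was 6.12, 6.08 and 5.75 at 4 h, against 4.67, 4.55 and 5.2 at 0 h. In WT the median was 0.10, and in both genotypes 0 genes were called, with 9 higher at an unadjusted p below 0.05 in *agb1*. The 16 clock genes had a median of 0.59, with 1 call, *ELF4*, which read 2.4, 2.39 and 2.26 at 4 h, against 0.28, 0.08 and 1.04 at 0 h (change 1.74, adjusted p = 0.0462). The part of shoot RNA, light or time of day in the changes of other genes was not tested. The 18 root cell type markers were measured and all were above background on all 6 *agb1* arrays, with a median change of −0.09. Of these *SUC2* rose by 1.2, and *PLT1*, *SCR* and *SHR* changed by −0.70, −0.30 and −0.23.

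**Figure D4:**
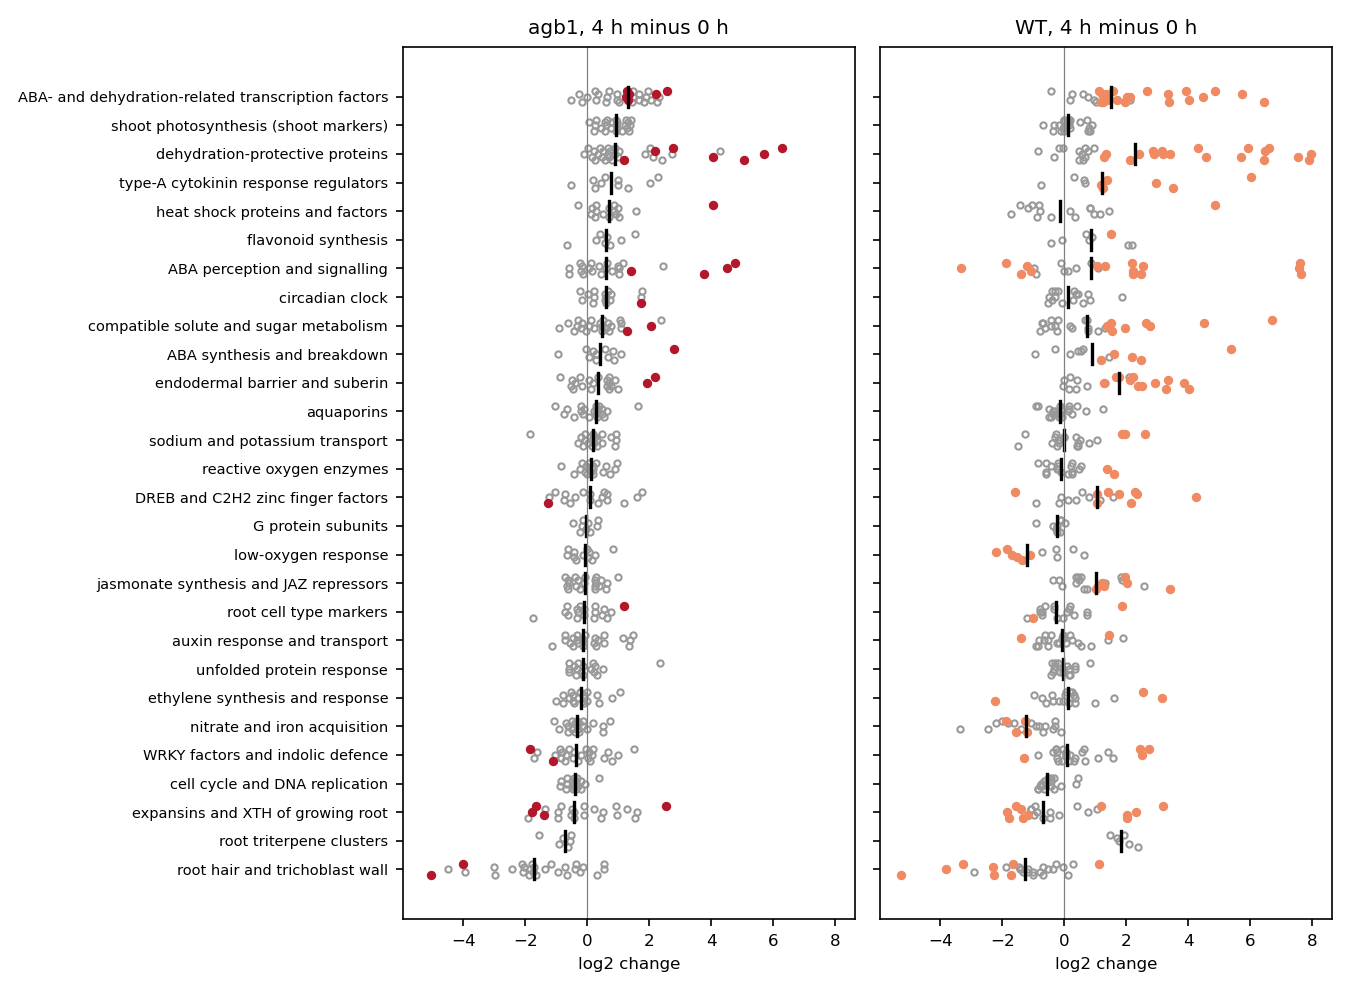
Changes in log2 signal (4 h minus 0 h) of the members of 28 gene lists in *agb1* (left) and WT (right), ordered by the *agb1* median. Filled points were called, open points were not, and bars mark medians, which in *agb1* run between −1.72 for root hair genes and 1.32 for ABA-related transcription factors.

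Set beside WT, the rises of *agb1* were mostly shared in direction. Of the 288 rises 282 (97.9%) had a change above 0 in WT, as did 41.3% of all genes, and 213 were called there too, which is 74% of the *agb1* rises and 14.5% of the 1465 WT rises (5.81% of the genes tested). Of the 130 falls 119 (91.5%) had a change below 0 in WT, as did 58.7% of all genes, and 83 were called, which is 63.8% of the *agb1* falls and 8.25% of the 1006 WT falls (3.99%). The medians of the called rises were 1.70 in *agb1* and 1.76 in WT, and those of the called falls −1.67 in *agb1* and −1.47 in WT. Because these genes were chosen by their call in *agb1*, the *agb1* medians are raised in size by that choice. In all, 2471 genes (9.8%) were called in WT, which is no comparison of strength, since the WT contrast had 3 samples a side and the *agb1* contrast 3 against 2.

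The test of the difference itself called 45 of 25207 genes (0.179%), and 3122 (12.4%) had an unadjusted p below 0.05. With the slide as a fixed block or with normexp background correction 0 were called. Of the 418 genes called in *agb1*, 6 were among the 45. *HAI1* rose in both genotypes, by 3.78 in *agb1* and 7.65 in WT (difference −3.86, 95% interval −5.18 to −2.54, adjusted p = 0.0497). Its levels at 0 h were −2.72, −2.45 and −2.98 in *agb1* and −5.50, −5.59 and −6.18 in WT. At 4 h they were 0.49, 0.96 and 1.56 in *agb1* and 1.06, 2.46 and 2.15 in WT, so the genotypes lay further apart at 0 h. *AT3G28600* rose by 1.66 in *agb1* and 4.82 in WT, and *AT5G19890* fell by 2.07 in *agb1* and by 5.15 in WT. The direction was opposite in 3 genes. *AT5G22545* read −6.15, −6.14 and −6.18 in *agb1* at 4 h, against −3.43, −3.52 and −4.77 at 0 h, a change of −2.03 beside 3.03 in WT. *EP1*, which encodes a receptor-like kinase also named CRK9, was above background on no *agb1* array at 4 h and was at least 2.61-fold lower, beside a WT change of 3.03. *EP1* entered the test only through *agb1* 0 h and WT 4 h arrays, where it was high. Its call is thus no separate evidence of a difference. *AT1G51920* was at least 1.96-fold lower in *agb1*, beside a WT change of 1.5. With normexp background correction the fitted changes of these 3 genes in *agb1* were −0.05 for *AT5G22545*, 0.50 for *EP1* and 0.75 for *AT1G51920*, none past the test. A few rises had little change in WT, such as *FER1*, for the iron store ferritin (1.44 in *agb1* and 0.50 in WT), and *RALFL32*, a signal peptide gene (1.03 and −0.01), and their differences did not pass the test.

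**Figure D5:**
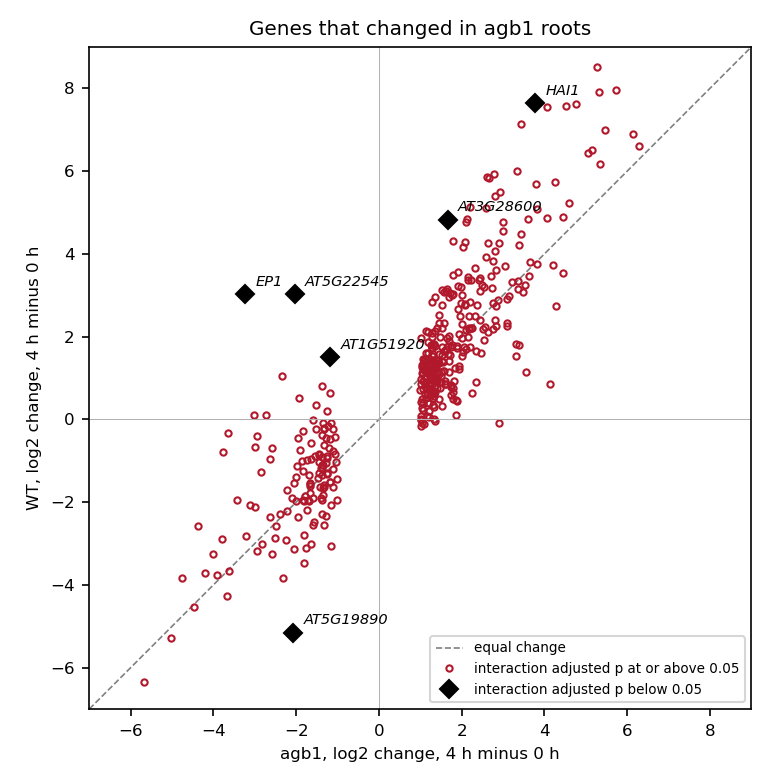
Change in log2 signal (4 h minus 0 h) in *agb1* (horizontal axis) and in WT (vertical axis) for the 418 genes called in *agb1*, with a dashed line of equal change. Diamonds mark the 6 genes whose change differed between genotypes (interaction, adjusted p below 0.05), 3 of which lie where *agb1* was lower and WT higher at 4 h.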

How the data were processed

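Arabidopsis root RNA was hybridised to one-colour Agilent 4x44K arrays, and the deposited files hold 1 array each with the processed signal intensity of every spot as the authors' scanner software wrote it, background-subtracted but not normalised between arrays (Feature Extraction 10.7.1.1 per the file headers, 9.1 in the submitters' processing notes). Samples were grouped by their labels, and 0 columns of per-sample values were left unused. Spots flagged as outliers and control spots were left out, and log2 intensity minus each array's 75th percentile was taken. Repeated spots were averaged, probes were kept if all arrays of 1 or more groups read them well above background, and the brightest probe stood for a locus. Of 43603 probes 34358 matched 25433 loci in the RefSeq gene table, and 25207 genes were tested, 20562 with a locus.

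A model of the 4 group means was fitted to 11 samples with limma 3.58.1 in R 4.3.3 (lmFit and eBayes, Benjamini-Hochberg adjustment over all genes tested). The change in *agb1* and the interaction with genotype were tested, and genes were called at an adjusted p below 0.05 and, for changes, at least 2-fold. The methods give 3 independent replicates; p-values measure only the spread between these arrays, whose number limits the precision. The named genes were *AGB1*, the 12 largest rises and 12 largest falls among genes with a locus above background on all 6 *agb1* arrays with no overlap, the 5 largest bounds each way among genes with a locus, up to 5 called members per list with defining members named whether called or not, and called genes whose interaction was called. Members and lists were chosen with earlier results of these data known. Scripts were tested on simulated data. The alternatives were other normalisations, filters, probe choices, array weights, blocks and left-out arrays. Replicate numbers gave no sign of pairing the samples (deviations correlated at 0.01, 0.11 and −0.10). With *agb1* 0 h replicates 1 and 2 nearly identical, this check could not decide whether they do. Slides held replicate 1 of all groups, replicate 3 of all groups, and replicate 2 of 3 groups.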

Additional observations from a re-analysis of the deposited data

Results flagged for a closer look

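The change with salt differed between the genotypes for 6 genes called in *agb1*, by the limma interaction (change in *agb1* minus change in WT, log2). In 3 of them *agb1* was lower and WT higher at 4 h. The difference was −6.27 for *EP1* (adjusted p = 0.0214), −5.07 for *AT5G22545* (adjusted p = 0.0183) and −2.68 for *AT1G51920* (adjusted p = 0.0183), and of these *AT5G22545* alone was above background on all 6 *agb1* arrays. *EP1* passed the filter on dim probes only through *agb1* 0 h and WT 4 h arrays, where it was high. Its adjusted p is thus no separate evidence, and its fitted difference includes *agb1* 4 h signals at background. A smaller rise in *agb1* gave −3.86 for *HAI1* (adjusted p = 0.0497) and −3.17 for *AT3G28600* (adjusted p = 0.0466). In both genes the 0 h levels of *agb1* lay above those of WT. A smaller fall in *agb1* gave 3.08 for *AT5G19890* (adjusted p = 0.0264).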

How the results depend on the processing

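With the deposited background correction, 288 genes rose, 130 fell and 45 differed between genotypes. The numbers of calls (rose, fell, differed) were 888, 511 and 263 with all 12 arrays as 12 samples, 44 and 9 from the *agb1* arrays alone, which give no interaction, 12, 6 and 0 with normexp, 79, 18 and 0 with the slide as a fixed block, 96 differing with the slide as a random block, 124, 59 and 80 with array weights, and 21 differing among genes above background on all arrays. Normexp followed by quantile normalisation, chosen after seeing the data, gave 164, 84 and 57. With no filter on dim probes 200 rose, 91 fell and 37 differed. With 12 arrays and the replicate number as a block the calls were 731, 406 and 158, and whether the numbers pair the samples was not settled.

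Leaving out 1 array gave 85 to 596 rises, 42 to 312 falls and 2 to 111 differences. The counts moved by over 1.5 times without *agb1* 4 h replicate 2 (85, 42 and 6) or 3 (127, 84 and 16), *agb1* 0 h replicate 3 (460, 312 and 111), WT 4 h replicate 3 (596 and 266), or any WT 0 h replicate (154 to 169, 66 to 70 and 2). Differences alone moved without *agb1* 4 h replicate 1 (24) and WT 4 h replicates 1 (85) and 2 (21).

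Outside normexp, every called gene that could be tested kept its sign. With normexp 381 of 418 did, 8 of the 62 named genes stayed called, and the changes of *MKK7* (0.20), *AT2G29000* (0.34), *EP1* (0.50) and *AT1G51920* (0.75) turned positive. Its lower quartile was −2.49 on *agb1* 4 h replicate 3, against −5.18 to −4.55 on the other *agb1* arrays. The slide block kept 25 of the 62 called, the *agb1* arrays alone 23, and the filter on all arrays tested 46. Dim genes have only bounds, which hold for the deposited correction and not under normexp.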
